A study of Homo sapiens with 18 samples.

Results

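DU145 prostate cancer cells that received siRNA against Stat5a and Stat5b were compared with DU145 cells that received a scramble siRNA. The members are the 3 arrays of each of these groups, 6 of 18 arrays in the series, chosen by their labels. Cells of both groups were transfected with Lipofectamine 2000 and harvested 48 h later. A further set of 3 DU145 arrays came from cells given Stat3 siRNA, and the same 3 siRNA groups existed for CWR22Rv1, another prostate cancer line, with 3 arrays each. All values are log2 expression values of Affymetrix U133 Plus 2.0 arrays, on which each of 19775 genes was represented by 1 probe set. Each group was done in triplicate and the RNA was not pooled, but the labels do not say that the triplicates were separate cultures, and p-values therefore describe array-to-array spread, which may be only technical. The siRNA sequences are not given in the sources used here, and 1 scramble control served the line, so effects of losing STAT5A and STAT5B and effects of the siRNA molecules themselves cannot be told apart. In a bulk sample, a change in some cells and a smaller change in all cells cannot be told apart either.

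STAT5A and STAT5B are closely related transcription factors that sit in the cytoplasm until a cytokine or hormone receptor, such as the prolactin or growth hormone receptor, activates a JAK kinase that phosphorylates them. They then pair up, enter the nucleus and bind DNA at palindromic sites, where they turn on genes such as CISH and the SOCS family, which in turn damp the signal. In prostate cancer, STAT5 is known as a survival and growth factor of tumour cells. The DU145 line came from prostate carcinoma that had spread to the brain, and it grows without androgen.

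Epithelial markers were among the brightest genes. KRT18, a keratin of simple epithelia, averaged 13.07 with Stat5a/b siRNA and 13.01 with scramble siRNA, and KRT8 averaged 10.90 and 11.01. The epithelial markers EPCAM (10.75 and 11.15) and CDH1 (8.92 and 10.10) averaged lower with Stat5a/b siRNA than with scramble siRNA. Luminal prostate markers spread from KLK2, at 3.74 with Stat5a/b siRNA and 3.54 with scramble siRNA, through ACP3 (4.16 and 3.79) and TMPRSS2 (5.23 and 4.81) to KLK3 (6.87 and 6.69). Fibroblast markers ran from LUM (2.40 and 2.56) to COL1A1 (6.81 and 7.18) and endothelial ones from KDR (2.96 and 3.01) to PECAM1 (5.56 and 5.36). Of leukocyte markers PTPRC averaged 3.10 with Stat5a/b siRNA and 3.04 with scramble siRNA and CD3E 4.82 and 4.63, while CD14 averaged 5.16 and 6.12 and was called lower (-0.96 ± 0.15, adjusted p = 0.00219). None of 8 fibroblast markers was called (limma). Of 7 endothelial markers 1 was called (CLDN5, lower, but not without Stat5a/b siRNA array 1 or scramble array 1 or 2). Of 7 leukocyte markers 1 was called (CD14). Among all genes 14.5% were called, 6.88% higher and 7.67% lower. The marker lists are too short for their counts to be told apart from these shares. The part of other cell types in the results was not tested. Array medians ran from 5.16 to 5.20. The 3 arrays within either compared group correlated at 0.993 to 0.997 across all probe sets (probe sets are not replicates of each other). As a sign of RNA integrity, the GAPDH control probe sets differed between their 3' and 5' ends by 0.0507 to 0.13 with Stat5a/b siRNA and 0.0415 to 0.153 with scramble siRNA, and the groups overlapped.

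The targeted genes were lower in all Stat5a/b siRNA arrays. STAT5B read 6.80, 6.63 and 6.61 with Stat5a/b siRNA, against 7.95, 8.01 and 8.16 with scramble siRNA. The groups were far apart on this probe set, and the level fell to 39.1% of scramble (log2 change -1.36 ± 0.11, adjusted p = 5.82e-05). Of the other 4 probe sets of STAT5B, 1 was at 44.4% and 1 at 64.6% of scramble, and 2 dimmer ones were higher by 0.24 and 0.42 with adjusted p = 0.378 and 0.187 over all probe sets. The mean of all 5 probe sets gave a smaller STAT5B change of -0.50 (adjusted p = 0.0057). STAT5A, which has 1 probe set, read 5.90, 5.92 and 5.75 with Stat5a/b siRNA, against 6.18, 6.12 and 6.17 with scramble siRNA. The groups did not overlap, yet STAT5A was at 81.1% of scramble (log2 change -0.30 ± 0.0771, adjusted p = 0.0263), and in each of the 6 fits without 1 array its adjusted p rose above 0.05, to between 0.0526 and 0.0872.

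Among the other STAT genes, STAT3 and STAT6 did not pass the test, with changes of 0.16 ± 0.0931 and 0.07 ± 0.0793. STAT3 passed with the mean of its 4 probe sets (0.39, adjusted p = 0.0457), which ran from 0.02 to 1.31. The change of 1.31 came from the dimmest of them, which read 5.13, 5.28 and 7.53 with Stat5a/b siRNA, against 4.51, 4.83 and 4.68 with scramble siRNA. That mean thus leaned on a single probe set and on array 3. STAT4, a mediator of interleukin-12 signalling in lymphocytes, read 7.70, 7.59 and 6.74 with Stat5a/b siRNA, against 8.67, 8.72 and 7.99 with scramble siRNA. Array 3 was the lowest of each group, and the change of -1.12 ± 0.28 (adjusted p = 0.0257) lost its call without Stat5a/b siRNA array 3 or scramble array 1 or 2 (adjusted p up to 0.0948).

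**Figure D1:**
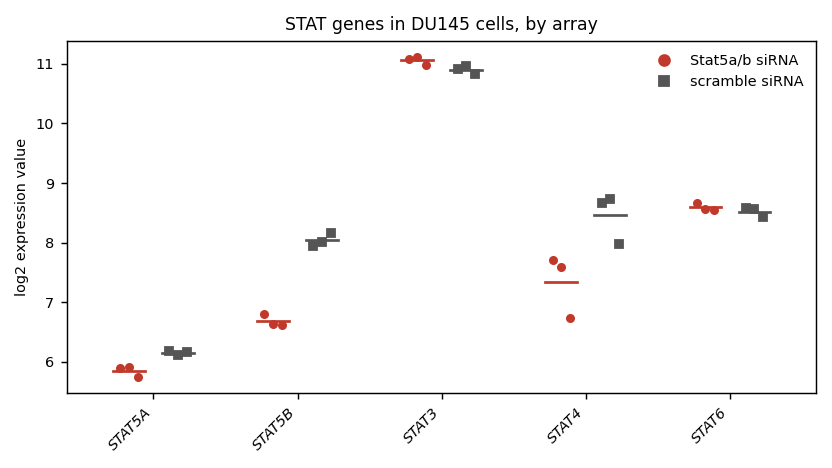
Log2 expression values of 5 STAT genes on single DU145 arrays (points) with group means (lines), Stat5a/b siRNA left of scramble siRNA. STAT5B, at 39.1% of scramble, shows the widest gap. STAT6 overlaps between groups, and STAT3 does not overlap but was not called.

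Across all genes, 2877 of 19775 (14.5%) passed the test at an adjusted p under 0.05 (limma, Benjamini-Hochberg). Of these, 1361 (6.88%) were higher and 1516 (7.67%) lower with Stat5a/b siRNA. Changes of at least 2-fold were called for 77 genes (0.389%) that rose and 91 (0.46%) that fell. Without 1 array the total ran from 1591 to 2467: it was 1810 without Stat5a/b siRNA array 1, 1769 without array 2, 1591 without scramble array 1 and 1632 without scramble array 2. Called in the full comparison and in all 6 such fits were 590 higher genes (2.98%) and 713 lower genes (3.61%), and genes named below belong to these unless said otherwise. The median log2 change over all genes was 0.01. All 3 Stat5a/b siRNA arrays lay above all 3 scramble arrays for 3282 genes (16.6%) and below them for 3512 (17.8%), called or not. Lack of overlap alone therefore marks many genes. Wherever a count without arrays is given, 1 array was left out at a time.

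**Figure D2:**
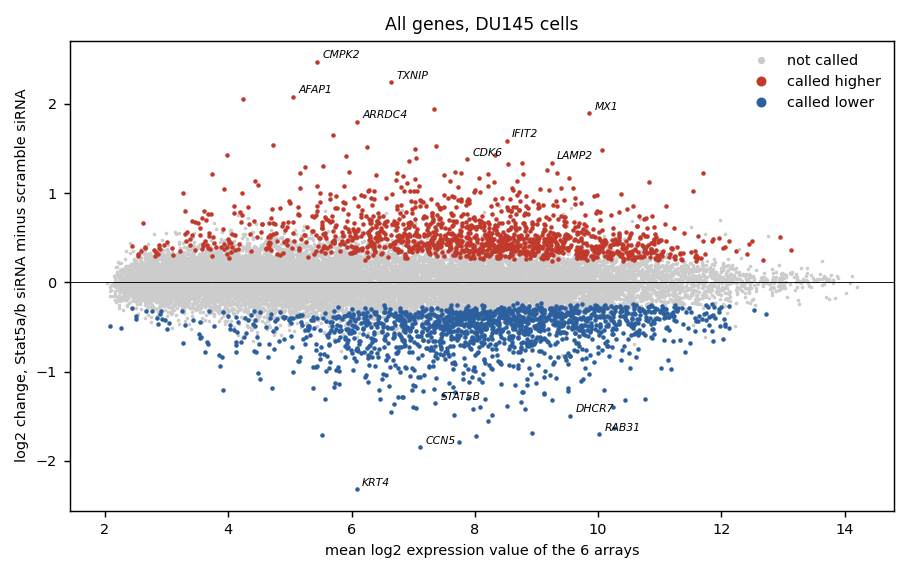
Log2 change of each gene in DU145 cells, Stat5a/b siRNA minus scramble siRNA, against its mean log2 value over the 6 arrays. Called genes, 1361 higher and 1516 lower, span the range of levels, and the largest changes lie between -2.32 for KRT4 and 2.47 for CMPK2.

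Interferon-stimulated effectors were the list with the most called rises. Interferon binds its receptor and JAK kinases set off a signal that ends with IRF9, in a complex, on a short element called ISRE in the promoters of antiviral effector genes. Of 49 measured effectors, 31 were called higher (63.3%) and 2 lower (4.08%), against 6.88% and 7.67% of all genes. The median log2 change was 0.70, against 0.01 for all genes. The list means relative to scramble were 0.91, 0.89 and 0.45 on the Stat5a/b siRNA arrays, against 0.04, 0.10 and -0.14 on the scramble arrays. Array 3 was the lowest of each group, and the count of higher calls was 33 without Stat5a/b siRNA array 3 and 26 without scramble array 3. The count of lower calls was 1 without scramble array 1 or 2.

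The ISRE sequence itself was common in the promoters of this list. A pair of GAAA boxes with any 2 bases between them, on either strand, lay in the 250 bases before the start of 29 of 41 list genes with a promoter in the RefSeq table (70.7%), against 522 of 15384 genes overall (3.39%). The shorter IRF motif GAANNGAAA, which overlaps it in part, was in 20 of the 41 (48.8%), against 7.50% of all genes. A pair of GAAA boxes with a single C between them was in 7 of the 41 (17.1%), against 33 of 15384 genes (0.215%). The list was made up of interferon-stimulated genes, whether or not they rose here, so these shares describe the list. Among called higher genes with a promoter, the ISRE lay before 49 of 1073 (4.57%) and the IRF motif before 86 (8.0%). Among called lower genes these were 34 of 1248 (2.72%) and 84 (6.73%). The pair with a single C lay before 12 of the 1073 (1.12%) and 2 of the 1248 (0.16%). The stretches below, from RefSeq on GRCh38.p14, show the elements of 4 effectors that rose, with the motifs or their reverse complements in capitals; a match describes the letters and is no sign of binding.
ISG15 (chr1:1013359-1013424, plus strand): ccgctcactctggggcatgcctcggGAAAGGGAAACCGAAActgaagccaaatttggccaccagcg
IFIT1 (chr10:89392482-89392554, plus strand): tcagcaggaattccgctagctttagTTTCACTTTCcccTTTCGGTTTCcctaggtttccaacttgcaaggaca
IFIT3 (chr10:89332410-89332512, plus strand): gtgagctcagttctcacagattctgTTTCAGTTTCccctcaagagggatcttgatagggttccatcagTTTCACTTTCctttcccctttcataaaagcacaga
MX1 (chr21:41426101-41426204, plus strand): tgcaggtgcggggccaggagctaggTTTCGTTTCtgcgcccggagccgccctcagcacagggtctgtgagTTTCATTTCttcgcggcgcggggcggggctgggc

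Effectors with antiviral roles were among the genes with the largest rises. CMPK2, a mitochondrial nucleotide kinase next to the antiviral gene RSAD2, read 6.71, 6.82 and 6.52 with Stat5a/b siRNA, against 3.94, 4.02 and 4.68 with scramble siRNA. No array overlapped, and the log2 change was 2.47 ± 0.18 (adjusted p = 3.92e-05). Its scramble mean lay at percentile 24.1 of all genes, and without detection calls it is not known whether this is above background, so no fold is given. MX1, a dynamin-like GTPase that traps viral ribonucleoproteins, read 11.07, 11.05 and 10.29 with Stat5a/b siRNA, against 9.01, 9.21 and 8.51 with scramble siRNA, array 3 being the lowest of each group (log2 change 1.89 ± 0.27, adjusted p = 0.00153). Its relative MX2 read 6.87, 6.84 and 6.13 with Stat5a/b siRNA, against 5.14, 5.18 and 5.28 with scramble siRNA (1.41 ± 0.21, adjusted p = 0.00184).

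The IFIT proteins bind viral RNA that lacks proper cap methylation. IFIT2 rose by 1.59 ± 0.18 (adjusted p = 4.29e-04), IFIT1 by 1.48 ± 0.20 (adjusted p = 0.00112), IFIT3 by 1.14 ± 0.20 (adjusted p = 0.00437) and IFIT5 by 0.48 ± 0.10 (adjusted p = 0.0113). IFIT1 read 10.91, 10.93 and 10.56 with Stat5a/b siRNA, against 9.49, 9.44 and 9.03 with scramble siRNA. Of the 2'-5' oligoadenylate synthetases, which switch on RNase L, OAS1 rose by 1.52 ± 0.32 (adjusted p = 0.0116) and OAS3 by 1.03 ± 0.18 (adjusted p = 0.00512). ISG15, a ubiquitin-like modifier, read 12.52, 12.55 and 11.84 with Stat5a/b siRNA, against 11.23, 11.26 and 10.75 with scramble siRNA (1.23 ± 0.25, adjusted p = 0.00977), and USP18, which removes ISG15 and blocks the interferon receptor, rose by 0.85 ± 0.0982 (adjusted p = 5.16e-04). XAF1, a binding partner of the caspase inhibitor XIAP, rose by 1.54 ± 0.16 (adjusted p = 2.83e-04). Its 3 probe sets ran from 0.07 to 1.54, and their mean rose by 0.74 (adjusted p = 0.00162).

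The same list included the helicase-like DDX60 (1.36 ± 0.26, adjusted p = 0.00712), the poly-ADP-ribosyltransferases PARP9 (0.90 ± 0.11, adjusted p = 7.78e-04), PARP12 (0.67 ± 0.0899) and PARP14 (0.69 ± 0.14), and DTX3L, the ubiquitin ligase partner of PARP9 (0.80 ± 0.14, adjusted p = 0.00524). TRIM14, an adaptor of mitochondrial antiviral signalling, rose by 1.05 ± 0.0849 (adjusted p = 6.82e-05) and the phospholipid scramblase PLSCR1 by 1.12 ± 0.10 (adjusted p = 1.48e-04). The sign was opposite in 1 of 3 probe sets of PLSCR1 and 1 of 2 probe sets of PARP14. Averaged over its probe sets, PARP14 at 0.28 (adjusted p = 0.14) was not called. IFI27, a mitochondrial protein, read 9.02, 8.79 and 7.10 with Stat5a/b siRNA, against 6.37, 6.66 and 6.07 with scramble siRNA. The arrays did not overlap, but the change of 1.94 ± 0.47 (adjusted p = 0.0207) was called in only 2 of the 6 fits without 1 array and lost its call without Stat5a/b siRNA array 1 or 2 or scramble array 1 or 3 (adjusted p up to 0.0735). Against the direction of the list, GBP2, an interferon-induced GTPase, fell by 0.81 ± 0.12 (adjusted p = 0.00199).

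Upstream of these effectors the changes were mixed. None of 8 measured interferon ligand genes was called (limma, against 14.5% of all genes, and 0 of 8 also at an unadjusted p under 0.05), and 1 was called higher with array weights. The median level of these ligands ran from 2.84 to 3.17 on the 6 arrays, against 6.34 for the median gene. Without detection calls it is not known whether they lie above background, so the arrays do not show that the ligands were unchanged. IFNB1, which encodes interferon beta, read 3.81, 3.79 and 3.69 with Stat5a/b siRNA, against 3.80, 3.24 and 3.72 with scramble siRNA, at the low end of the scale. IFNAR1, a subunit of the type I interferon receptor, read 6.62, 6.44 and 6.60 with Stat5a/b siRNA, against 7.66, 7.73 and 7.93 with scramble siRNA and fell to 42.9% of scramble (-1.22 ± 0.0925, adjusted p = 4.76e-05). 1 of 4 probe sets of IFNAR1 had the opposite sign. IRF9, a DNA-binding factor of interferon signalling, read 10.16, 10.22 and 9.97 with Stat5a/b siRNA, against 9.06, 9.11 and 8.996 with scramble siRNA (1.06 ± 0.0918, adjusted p = 9.58e-05), and IRF7, a factor that amplifies interferon production, read 9.52, 9.64 and 8.998 with Stat5a/b siRNA, against 8.31, 8.16 and 8.03 with scramble siRNA (1.22 ± 0.17, adjusted p = 0.00159). STING1, the endoplasmic reticulum adaptor of cytosolic DNA sensing, fell by 0.97 ± 0.17 (adjusted p = 0.00509). Of 13 double-stranded RNA and DNA sensor genes 3 were called higher and 3 lower (23.1% each, against 6.88% and 7.67% of all genes), with a median of 0.18. No higher call held in all 6 fits without 1 array. Among the higher calls, the RNA sensors IFIH1 and RIGI rose by 0.62 and 0.46. With the mean of their probe sets these rises were 0.48 and 0.71 (adjusted p = 0.0172 and 7.48e-04).

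Antigen presentation genes held more called falls than rises. Of 17 measured members, 1 was called higher and 4 lower, a share of 5.88% and 23.5% against 6.88% and 7.67% of all genes. Leaving out 1 array, higher calls numbered 0 without scramble array 1. PSMB10, a subunit of the immunoproteasome, fell by 0.51 ± 0.0848, ERAP2, a peptide-trimming aminopeptidase, fell by 0.67 ± 0.0931, and CALR, a chaperone of the peptide-loading complex, fell by 0.57 ± 0.11 (adjusted p = 0.00347, 0.00138 and 0.00753). Opposite in sign was 1 of 5 probe sets of ERAP2.

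The thioredoxin-interacting protein TXNIP and its relative ARRDC4, alpha-arrestins that limit glucose uptake and are switched on by the glucose-sensing factor MondoA, rose. TXNIP read 7.93, 7.74 and 7.61 with Stat5a/b siRNA, against 5.47, 5.56 and 5.53 with scramble siRNA. The gap between groups was wide, and the rise was 4.73-fold (2.24 ± 0.12, adjusted p = 2.28e-05). The 3 probe sets of TXNIP ran from 1.29 to 2.24, and their mean rose by 1.75 (adjusted p = 2.77e-05). ARRDC4 read 6.89, 6.90 and 7.19 with Stat5a/b siRNA, against 4.91, 5.25 and 5.42 with scramble siRNA, a rise of 3.48-fold (1.80 ± 0.15, adjusted p = 7.54e-05), again without overlap. The scramble values of both genes lay under the level of the median gene (6.34). Without detection calls it is not known whether they are above background, which makes the folds uncertain. Of 10 genes of the alpha-arrestin and MondoA list, 4 were called higher (40%) and 1 lower (10%), against 6.88% and 7.67% of all genes. In all 6 fits without 1 array, 2 were called higher and 0 lower. MondoA acts with its partner MLX on paired E-box-like elements. A pair of CACGNG boxes with any 5 bases between them lay in the 250 bases before TXNIP and before 15 of 15384 genes in all (0.0975%). Of the 10 list genes it lay before TXNIP alone, not before ARRDC4. It lay before 3 of 1073 called higher genes (0.28%) and 1 of 1248 called lower genes (0.0801%). The pair is shown in capitals for TXNIP on GRCh38.p14.
TXNIP (chr1:145996626-145996692, minus strand): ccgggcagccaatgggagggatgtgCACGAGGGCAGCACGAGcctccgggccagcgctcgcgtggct

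Of 24 glucose uptake and glycolysis genes, 0 were called higher and 7 lower (29.2%, against 7.67% of all genes). Calls of lower members numbered 4 without Stat5a/b siRNA array 1 or 2 or scramble array 3. PFKM and PFKP, subunits of phosphofructokinase, the committed step of glycolysis, changed by -0.65 ± 0.0903 (adjusted p = 0.00138) and -0.49 ± 0.0888 (adjusted p = 0.00571), and PFKFB2, which makes its activator fructose 2,6-bisphosphate, changed by -0.43 ± 0.0744 (adjusted p = 0.00422). Against this sign were 1 of 2 probe sets of PFKP and 1 of 4 probe sets of PFKFB2. The mean of all probe sets left PFKP at -0.22 (adjusted p = 0.0629) not called.

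Sterol synthesis was the list with the largest share of called falls. The pathway builds cholesterol from acetyl-CoA, and its genes are controlled together by SREBP2, which needs the escort SCAP and the proteases MBTPS1 and MBTPS2 to become active. Of 16 measured enzymes, 0 were called higher and 11 lower (68.8%, against 7.67% of all genes). The median was -0.52, and 10 fell in all 6 fits without 1 array. List means relative to scramble were -0.60, -0.62 and -0.39 on the Stat5a/b siRNA arrays, against -0.03 to 0.04 on the scramble arrays.

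DHCR7, the last enzyme of the pathway, read 8.75, 8.78 and 8.85 with Stat5a/b siRNA, against 10.27, 10.30 and 10.30 with scramble siRNA. It fell to 35.4% of scramble (-1.50 ± 0.0796, adjusted p = 2.28e-05), the largest fall of the list. SQLE, which makes squalene epoxide and is a rate-limiting step, read 9.23, 9.18 and 9.64 with Stat5a/b siRNA, against 10.29, 10.35 and 10.47 with scramble siRNA (-1.02 ± 0.12, adjusted p = 5.71e-04). LSS, which closes the sterol ring, fell by 0.84 ± 0.0926 and MSMO1, a demethylase of sterol intermediates, fell by 0.72 ± 0.15 (adjusted p = 4.22e-04 and 0.0119). Earlier in the route, MVD and FDPS changed by -0.56 ± 0.11 and -0.38 ± 0.0784 (adjusted p = 0.00721 and 0.0107). TM7SF2, a sterol reductase, fell by 0.99 ± 0.10 (adjusted p = 2.68e-04).

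A promoter of the list is shown for DHCR7 because its CCAAT boxes, in capitals on both strands, mark most of these genes: CCAAT lay before 13 of 14 sterol genes (92.9%), against 39.7% of all genes. Among called lower genes with a promoter, CCAAT lay before 498 of 1248 (39.9%). The sterol regulatory element, searched in 1 form on both strands, lay before 0 of the 14 and before 7 of 15384 genes in all (0.0455%).
DHCR7 (chr11:71448412-71448512, minus strand): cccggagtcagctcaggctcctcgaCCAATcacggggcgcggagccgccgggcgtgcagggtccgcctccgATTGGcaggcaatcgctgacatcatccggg

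Several controllers of the pathway also fell. MBTPS1 and MBTPS2, the proteases that release SREBP from membranes, changed by -0.78 ± 0.11 and -0.48 ± 0.0792 (adjusted p = 0.00124 and 0.00334), SCAP changed by -0.46 ± 0.0902 (adjusted p = 0.00797) and INSIG1, which retains SCAP when sterols are plentiful, changed by -0.66 ± 0.11 (adjusted p = 0.00369). The sign was opposite in 1 of 3 probe sets of MBTPS2. Taken over all probe sets, MBTPS2 at -0.19 (adjusted p = 0.202) was not called. Among 19 regulation and transport genes 2 were called higher (10.5%) and 7 lower (36.8%), against 6.88% and 7.67% of all genes. Higher calls were 0 without Stat5a/b siRNA array 1 or 2 or scramble array 1 and 1 without scramble array 2 or 3. For lower calls the number was 4 without scramble array 1 or 2. Of 21 fatty acid synthesis genes 9 were called lower (42.9%) and 1 higher (4.76%), against 7.67% and 6.88% of all genes. The count of lower calls was 3 without scramble array 1 or 2, 4 without Stat5a/b siRNA array 2 and 5 without Stat5a/b siRNA array 1 or 3. FASN, the fatty acid synthase, read 8.40, 8.55 and 8.50 with Stat5a/b siRNA, against 9.31, 9.10 and 9.18 with scramble siRNA (-0.72 ± 0.13, adjusted p = 0.00503), without overlap. ELOVL7, which lengthens saturated fatty acids, fell by 0.89 ± 0.0828 (adjusted p = 1.39e-04), while ACSL1, which activates fatty acids to acyl-CoA, rose by 0.66 ± 0.12 (adjusted p = 0.0053).

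Most measured genes of the integrated stress response were called higher. In this response, kinases such as PERK (EIF2AK3) slow general translation, the factor ATF4 is still made, and ATF4 switches on genes for amino acid supply. Of 24 measured members, 17 were called higher (70.8%) and 1 lower (4.17%), against 6.88% and 7.67% of all genes. The median was 0.49, and the list means relative to scramble were 0.39, 0.37 and 0.53 on the Stat5a/b siRNA arrays. The lowest count without 1 array was 13.

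SESN2, a leucine sensor that restrains mTORC1, read 7.13, 7.13 and 7.74 with Stat5a/b siRNA, against 6.33, 6.08 and 6.38 with scramble siRNA (1.07 ± 0.16, adjusted p = 0.0018). CHAC1, which breaks down glutathione, read 7.26, 7.19 and 7.36 with Stat5a/b siRNA, against 6.43, 6.54 and 6.48 with scramble siRNA (0.79 ± 0.12, adjusted p = 0.00202), and ASNS, asparagine synthetase, read 11.20, 11.15 and 11.39 with Stat5a/b siRNA, against 10.48, 10.43 and 10.60 with scramble siRNA (0.74 ± 0.0947, adjusted p = 8.45e-04). All 3 genes had no overlap between groups, which held for 16.6% of all genes on the higher side. DDIT3 (CHOP), a factor of stress-induced death, rose by 0.76 ± 0.13 (adjusted p = 0.00362), TRIB3, a pseudokinase that damps ATF4 output, by 0.70 ± 0.0792 (adjusted p = 4.72e-04), and ATF4 itself by 0.46 ± 0.086 (adjusted p = 0.00601). The serine pathway enzymes PHGDH and PSAT1 rose by 0.49 ± 0.0786 (adjusted p = 0.00286) and 0.49 ± 0.0706 (adjusted p = 0.00162), and SHMT2, which turns serine into glycine in mitochondria, by 0.38 ± 0.079 (adjusted p = 0.0112). VLDLR, a lipoprotein receptor, fell by 0.91 ± 0.13 (adjusted p = 0.0014).

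Of 17 amino acid transporters 6 were called higher (35.3%, against 6.88% of all genes) and 0 lower, and the higher count was 4 without scramble array 2. SLC7A11, the cystine importer, read 10.90, 10.99 and 11.21 with Stat5a/b siRNA, against 10.26, 10.38 and 10.24 with scramble siRNA (0.74 ± 0.12, adjusted p = 0.00254). SLC7A2, an arginine importer, rose by 1.08 ± 0.18 (adjusted p = 0.00322), SLC38A1 by 0.46 ± 0.0772 (adjusted p = 0.00375) and SLC1A4 by 0.45 ± 0.0925 (adjusted p = 0.0101). 1 of 3 probe sets of SLC7A2 had the opposite sign. Averaged over its probe sets, SLC38A1 at 0.25 (adjusted p = 0.0903) was not called. Of 17 tRNA synthetases 4 were called higher (23.5%) and 2 lower (11.8%), against 6.88% and 7.67% of all genes. The count of higher calls was 2 without Stat5a/b siRNA array 1, 2 or 3 or scramble array 1 or 2. The lower count was 1 whichever array was left out. CARS1, for cysteine, rose by 0.48 ± 0.0899 (adjusted p = 0.00669), while SARS1, for serine, fell by 0.72 ± 0.0852 (adjusted p = 5.83e-04). Opposite in sign was 1 of 2 probe sets of SARS1. The mean of all probe sets left SARS1 at -0.07 (adjusted p = 0.676) not called.

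Chaperones and other genes of the unfolded protein response were called in both directions. Of 21 members 3 were called higher and 7 lower (33.3% for lower), against 6.88% higher and 7.67% lower among all genes. The lower count was 2 without Stat5a/b siRNA array 1 or scramble array 2. It was 3 without Stat5a/b siRNA array 2 or 3 or scramble array 1. HSP90B1, the endoplasmic reticulum HSP90, fell by 0.46 ± 0.0796 and CALR fell by 0.57 ± 0.11 (adjusted p = 0.00423 and 0.00753). Among rises were HERPUD1, which aids degradation of misfolded proteins, at 0.75 ± 0.09 (adjusted p = 5.93e-04), ERN1 (IRE1), a stress sensor, at 0.71 ± 0.12 (adjusted p = 0.00331), and the co-chaperone DNAJB9 at 0.53 ± 0.0792 (adjusted p = 0.00205).

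Genes of the NRF2 antioxidant programme were called higher for 9 of 26 (34.6%) and lower for 2 (7.69%), against 6.88% and 7.67% of all genes. Calls of higher members numbered 5 without scramble array 1. Lower calls were 1 without scramble array 2. HMOX1, haem oxygenase 1, read 10.59, 10.65 and 11.38 with Stat5a/b siRNA, against 9.86, 9.72 and 10.06 with scramble siRNA (0.99 ± 0.19, adjusted p = 0.0065). SRXN1, which repairs oxidised peroxiredoxins, rose by 1.02 ± 0.0704 (adjusted p = 3.76e-05) and OSGIN1 by 0.72 ± 0.14 (adjusted p = 0.00651). The export pump ABCC1 fell by 0.54 ± 0.0778 (adjusted p = 0.00173). Of aldo-keto reductases, which reduce aldehydes and steroids, AKR1B10 rose by 1.04 ± 0.17 (adjusted p = 0.0028), AKR1C1 by 1.13 ± 0.0938 (adjusted p = 7.54e-05) and AKR1C2 by 0.78 ± 0.13 (adjusted p = 0.0036), though the probe sets of AKR1C1 and AKR1C2 can read related transcripts. Against this sign was 1 of 5 probe sets of AKR1C1. In contrast ALDH1A3, an enzyme that makes retinoic acid, read 9.36, 9.51 and 9.43 with Stat5a/b siRNA, against 11.17, 11.05 and 10.98 with scramble siRNA and fell to 32.2% of scramble (-1.63 ± 0.12, adjusted p = 3.76e-05).

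**Figure D3:**
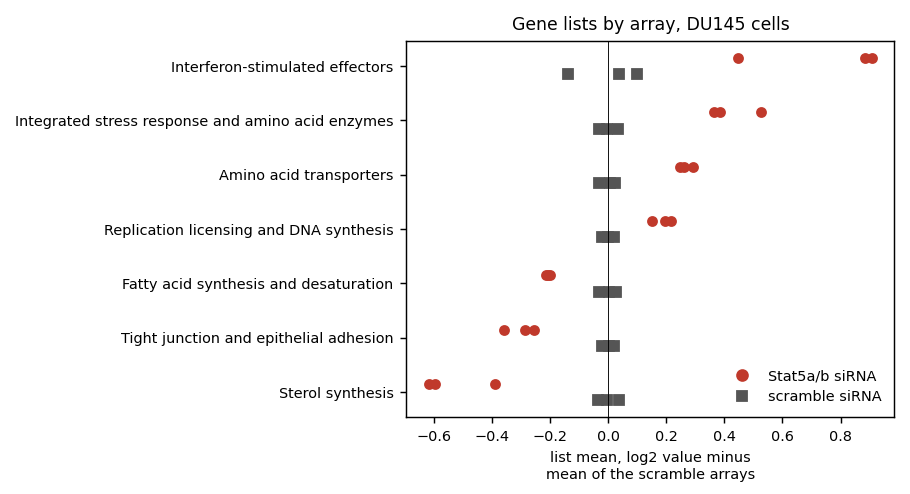
Mean log2 value over the members of 7 gene lists on single DU145 arrays, minus the mean of the scramble arrays; circles are Stat5a/b siRNA, squares scramble siRNA. Interferon effectors lie at 0.91, 0.89 and 0.45 with Stat5a/b siRNA and between -0.14 and 0.10 with scramble, while sterol synthesis lies at -0.39 to -0.62 with Stat5a/b siRNA.

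Some cell cycle genes were called. Of 40 replication licensing and DNA synthesis genes 12 were called higher (30%, against 6.88% of all genes) and 0 lower. For higher calls the number was 6 without scramble array 2 and 7 without Stat5a/b siRNA array 1. CCNE2, cyclin E2, which drives entry into S phase, read 9.74, 9.80 and 9.86 with Stat5a/b siRNA, against 8.20, 8.54 and 8.89 with scramble siRNA (1.26 ± 0.15, adjusted p = 6.85e-04). CDC6, which loads the replicative helicase, rose by 0.54 ± 0.0745 (adjusted p = 0.00127), ORC6 by 0.47 ± 0.0831 (adjusted p = 0.00488) and the helicase factor GINS1 by 0.53 ± 0.0852 (adjusted p = 0.00286). The repair enzymes FEN1 and UNG rose by 0.44 ± 0.0723 (adjusted p = 0.00342) and 0.52 ± 0.0712 (adjusted p = 0.00119).

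Of 32 mitosis genes 6 were called higher (18.8%) and 2 lower (6.25%), against 6.88% and 7.67% of all genes. The count of higher calls was 1 without Stat5a/b siRNA array 1 or 2 or scramble array 2 or 3. Leaving out 1 array, lower calls numbered 0 without Stat5a/b siRNA array 2 or 3 or scramble array 1 or 2 and 1 without Stat5a/b siRNA array 1 or scramble array 3. CCNA2, cyclin A2, rose by 0.43 ± 0.0862 (adjusted p = 0.00877). Among G1 regulators, the kinase CDK6 read 8.45, 8.41 and 8.85 with Stat5a/b siRNA, against 7.02, 7.005 and 7.54 with scramble siRNA (1.38 ± 0.18, adjusted p = 9.24e-04) and CDK2 rose by 0.66 ± 0.0901 (adjusted p = 0.00124). The sign was opposite in 1 of 7 probe sets of CDK6 and 1 of 3 probe sets of CDK2. CCND1, cyclin D1 and a known STAT5 target, read 9.37, 9.31 and 9.32 with Stat5a/b siRNA, against 9.90, 9.81 and 9.997 with scramble siRNA and fell to 67.3% of scramble (-0.57 ± 0.0826, adjusted p = 0.0017). The inhibitors CDKN1A (p21) and CDKN1B (p27) did not pass the test, with 0.20 ± 0.12 (adjusted p = 0.309) and 0.30 ± 0.11 (adjusted p = 0.108); CDKN1B passed under 4 other settings (adjusted p 0.0176 to 0.0467).

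Of 34 BCL2 family members, caspases and death receptors, 8 were called higher (23.5%) and 2 lower (5.88%), against 6.88% and 7.67% of all genes. Calls of higher members numbered 2 without scramble array 2, 3 without scramble array 1 and 4 without Stat5a/b siRNA array 1 or 3. Lower calls were 1 without Stat5a/b siRNA array 1 or 2 or scramble array 1 or 2. BCL2L2 (BCL-w), a survival factor, read 6.30, 6.30 and 6.55 with Stat5a/b siRNA, against 7.64, 7.51 and 7.61 with scramble siRNA, fully apart, and fell to 43.3% of scramble (-1.21 ± 0.0993, adjusted p = 7.49e-05). APAF1, the core of the apoptosome, rose by 0.75 ± 0.14 (adjusted p = 0.00732) and CASP2, an initiator caspase, by 0.74 ± 0.0737 (adjusted p = 2.33e-04). MCL1, a survival factor, changed by 0.49 ± 0.10 (adjusted p = 0.0127), and lost its call without scramble array 2 (adjusted p = 0.0553). Taken over all probe sets, MCL1 at 0.50 (adjusted p = 0.0914) was not called. BCL2L1 (BCL-X) changed by 0.36 ± 0.091 (adjusted p = 0.0243) and lost its call without Stat5a/b siRNA array 1 or 3 or scramble array 1 or 2 (adjusted p up to 0.0989). BCL2 read 5.66, 5.71 and 5.52 with Stat5a/b siRNA, against 5.71, 5.91 and 5.70 with scramble siRNA and BIRC5 (survivin) read 10.91, 10.92 and 10.89 with Stat5a/b siRNA, against 10.92, 10.83 and 10.83 with scramble siRNA, and neither passed (adjusted p = 0.361 and 0.784). The p53 regulator MDM2 fell by 0.67 ± 0.13 (adjusted p = 0.008). 2 of 4 probe sets of BCL2L1 and 5 of 10 probe sets of MDM2 had the opposite sign. Averaged over their probe sets, BCL2L1 at 0.05 (adjusted p = 0.836) and MDM2 at -0.11 (adjusted p = 0.42) were not called.

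Of 24 textbook targets of STAT5 4 were called higher and 2 lower, a share of 16.7% and 8.33% against 6.88% and 7.67% of all genes. For higher calls the number was 1 without scramble array 2 and 2 without Stat5a/b siRNA array 1 or scramble array 1. In all 6 fits without 1 array, 1 was called higher and 2 lower. The largest rise of the list was that of CEBPB, at 0.54, and the largest fall that of CCND1, at -0.57. CISH, a feedback inhibitor induced by STAT5, read 6.74, 6.71 and 6.67 with Stat5a/b siRNA, against 6.61, 6.48 and 6.54 with scramble siRNA (log2 change 0.17 ± 0.0799, adjusted p = 0.208). SOCS2, another such inhibitor, read 10.47, 10.46 and 10.63 with Stat5a/b siRNA, against 10.64, 10.83 and 10.76 with scramble siRNA (-0.22 ± 0.10, adjusted p = 0.184). With array weights both passed, at 0.20 for CISH (adjusted p = 0.0454) and -0.29 for SOCS2 (adjusted p = 0.0306), and SOCS2 also passed with the mean of its probe sets (-0.30, adjusted p = 0.0287). PIM2, a survival kinase, fell by 0.45 ± 0.0784 (adjusted p = 0.00462), while PIM1 at 0.08 ± 0.0846 (adjusted p = 0.615) and MYC at 0.26 ± 0.19 (adjusted p = 0.436) did not pass.

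The palindrome TTCNNNGAA that STAT factors bind, on either strand, lay before 74 of 1073 called higher genes with a promoter (6.90%), 102 of 1248 called lower genes (8.17%) and 1203 of 15384 genes in all (7.82%). It was before 2 of 18 textbook targets, CISH among them. The CISH element is shown in capitals.
CISH (chr3:50611853-50611911, minus strand): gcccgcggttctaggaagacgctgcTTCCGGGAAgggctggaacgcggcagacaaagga

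Of 19 JAK-STAT feedback genes 0 were called higher and 2 lower (10.5%, against 7.67% of all genes): PTPN6 (SHP-1), a phosphatase that turns the pathway off, fell by 0.62 ± 0.10 and PIAS3, an inhibitor of STAT3, fell by 0.41 ± 0.0884 (adjusted p = 0.00368 and 0.0122). SOCS1 and SOCS3 had values of -0.03 ± 0.0875 and -0.02 ± 0.14 and did not pass (adjusted p = 0.85 and 0.954). In the interleukin-6 family, the receptor IL6R rose by 0.78 ± 0.0872 (adjusted p = 4.39e-04) and the ligand LIF, leukaemia inhibitory factor, fell by 0.75 ± 0.14 (adjusted p = 0.00669).

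Epithelial junction genes held many called falls. Tight junctions seal neighbouring epithelial cells and adherens junctions, built on E-cadherin, hold them together. Of 25 tight junction and adhesion genes 0 were called higher and 12 lower (48%, against 7.67% of all genes). The median was -0.29, and the list means relative to scramble were -0.29, -0.25 and -0.36 on the Stat5a/b siRNA arrays. CDH1, E-cadherin, read 8.92, 9.09 and 8.74 with Stat5a/b siRNA, against 10.07, 10.15 and 10.07 with scramble siRNA and fell to 44.2% of scramble (-1.18 ± 0.10, adjusted p = 9.58e-05). CDH3, P-cadherin, fell by 0.81 ± 0.13 (adjusted p = 0.00278). OCLN, MARVELD2 and CLDN7, strand proteins of tight junctions, changed by -0.61 ± 0.0809, -0.58 ± 0.0867 and -0.48 ± 0.0798 (adjusted p = 0.00105, 0.002 and 0.00354). MUC1, an apical mucin, fell by 0.79 ± 0.16 and the protease inhibitor SPINT1 fell by 0.70 ± 0.11 (adjusted p = 0.0098 and 0.00281). Opposite in sign was 1 of 2 probe sets of SPINT1.

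Of 18 mesenchymal genes 1 was called higher (5.56%) and 4 lower (22.2%), against 6.88% and 7.67% of all genes. The lower count was 2 without scramble array 1 or 2. The count of higher calls was 0 without Stat5a/b siRNA array 3 or scramble array 1 or 2 and 3 without scramble array 3. S100A4, a calcium-binding protein used as a fibroblast marker, read 7.56, 7.60 and 7.12 with Stat5a/b siRNA, against 8.56, 8.61 and 8.27 with scramble siRNA (-1.06 ± 0.19, adjusted p = 0.00503), and FN1, fibronectin, fell by 0.53 ± 0.10 (adjusted p = 0.00772). Against this sign were 2 of 7 probe sets of FN1. The mean of all probe sets left FN1 at -0.24 (adjusted p = 0.0657) not called. Keratin and desmosome genes had 0 of 23 called higher and 5 lower (21.7%, against 7.67% of all genes). KRT4, a keratin of stratified internal epithelia, read 5.04, 5.29 and 4.43 with Stat5a/b siRNA, against 7.75, 7.55 and 6.42 with scramble siRNA. Its fall was the largest of all genes, to 20.1% of scramble (-2.32 ± 0.38, adjusted p = 0.00314), and array 3 was the lowest of each group. The other of its 2 probe sets changed by -0.10, and the mean of both by -1.21 (adjusted p = 0.00465). PPL, periplakin, which ties keratins to desmosomes, read 8.24, 8.06 and 7.99 with Stat5a/b siRNA, against 9.64, 9.55 and 9.38 with scramble siRNA (-1.42 ± 0.17, adjusted p = 6.07e-04).

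Integrins, the cell's receptors for matrix, had 0 of 17 called higher and 6 lower (35.3%, against 7.67% of all genes). Leaving out 1 array, lower calls numbered 3 without scramble array 2. ITGA1, a collagen receptor, fell by 0.84 ± 0.15 and ITGA3, a laminin receptor, fell by 0.45 ± 0.0851 (adjusted p = 0.00568 and 0.00662). Of 32 matrix genes 3 were called higher (9.38%) and 7 lower (21.9%), against 6.88% and 7.67% of all genes. COL12A1, a fibril-associated collagen, fell by 1.48 ± 0.0996 and COL6A1 fell by 1.23 ± 0.10 (adjusted p = 3.51e-05 and 7.40e-05). The collagen cross-linking enzymes LOXL1 and LOXL2 changed by -0.62 ± 0.12 and -0.78 ± 0.0964 (adjusted p = 0.00721 and 7.45e-04), whereas COL4A1, a basement membrane collagen, rose by 0.80 ± 0.16 (adjusted p = 0.00969). The sign was opposite in 1 of 3 probe sets of ITGA1, 2 of 5 probe sets of COL12A1 and 2 of 8 probe sets of COL6A1.

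CCN5 (WISP2), a secreted matricellular protein, read 6.08, 6.43 and 6.05 with Stat5a/b siRNA, against 8.17, 8.19 and 7.75 with scramble siRNA and fell to 27.7% of scramble (-1.85 ± 0.15, adjusted p = 7.49e-05). IGFBP4 and IGFBP6, which bind insulin-like growth factors, changed by -0.97 ± 0.14 and -0.92 ± 0.19 (adjusted p = 0.00144 and 0.0118). HPSE, heparanase, which cuts heparan sulfate, read 7.34, 7.34 and 7.13 with Stat5a/b siRNA, against 8.40, 8.42 and 8.23 with scramble siRNA (-1.08 ± 0.11, adjusted p = 2.90e-04).

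Wnt and TGF-beta pathways held more called falls than rises. Of 25 Wnt pathway genes 1 was called higher (4%) and 10 lower (40%), against 6.88% and 7.67% of all genes. Calls of lower members numbered 6 without scramble array 2. Higher calls were 0 without Stat5a/b siRNA array 1 or 2 or scramble array 1 or 2. The receptors FZD6 and LRP5 changed by -0.58 ± 0.0853 and -0.73 ± 0.12 (adjusted p = 0.00179 and 0.00394), RNF43, which removes such receptors, changed by -0.75 ± 0.0957, and DKK1, a secreted inhibitor, changed by -0.65 ± 0.077 (adjusted p = 8.48e-04 and 5.93e-04). Of 30 TGF-beta pathway genes 1 was called higher (3.33%) and 6 lower (20%). For lower calls the number was 3 without scramble array 1 or 2. The count of higher calls was 2 without Stat5a/b siRNA array 2 or 3. TGFBR1, a type I receptor, fell by 0.78 ± 0.0959 and its ligand TGFB2 fell by 0.74 ± 0.12 (adjusted p = 6.85e-04 and 0.00328). 1 of 2 probe sets of LRP5 and 1 of 3 probe sets of TGFBR1 had the opposite sign. Taken over all probe sets, LRP5 at -0.33 (adjusted p = 0.0772) was not called.

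In the Hippo pathway, YAP1, a coactivator, read 10.49, 10.50 and 10.26 with Stat5a/b siRNA, against 9.53, 9.70 and 9.67 with scramble siRNA (0.78 ± 0.0899, adjusted p = 5.05e-04), while its paralog WWTR1 (TAZ) fell by 0.41 ± 0.078 (adjusted p = 0.00669). The DNA-binding partners TEAD1 and TEAD4 rose by 0.39 ± 0.0709 (adjusted p = 0.00558) and 0.49 ± 0.0757 (adjusted p = 0.0025). Averaged over its probe sets, TEAD1 at 0.22 (adjusted p = 0.187) was not called. The YAP and TEAD list as a whole had 3 of 18 genes called higher (16.7%) and 2 lower (11.1%), against 6.88% and 7.67% of all genes. Its median log2 change was -0.06, with 8 genes positive and 10 negative. In the Notch pathway, the nuclear factor RBPJ, its coactivator MAML1 and the target HEY1 rose by 0.55 ± 0.0797 (adjusted p = 0.00166), 0.45 ± 0.0813 (adjusted p = 0.00543) and 0.64 ± 0.12 (adjusted p = 0.00794). Of 13 Notch pathway genes 3 were called higher (23.1%, against 6.88% of all genes) and 0 lower. The factors KLF2 and KLF4 rose by 1.02 ± 0.14 (adjusted p = 0.00138) and 1.08 ± 0.0899 (adjusted p = 7.54e-05).

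Vesicle traffic and lysosome genes varied one by one. RAB31, a GTPase of trans-Golgi and endosome traffic, read 9.35, 9.31 and 8.84 with Stat5a/b siRNA, against 10.97, 10.94 and 10.69 with scramble siRNA. The groups were far apart and the level fell to 30.7% of scramble (-1.70 ± 0.14, adjusted p = 6.82e-05). RAB27B, which docks secretory vesicles, fell by 0.75 ± 0.11 and RAB5B, of early endosomes, fell by 0.81 ± 0.12 (adjusted p = 0.00158 and 0.00199), while RAB8B rose by 0.91 ± 0.0954 (adjusted p = 2.99e-04). Of 31 Rab genes 2 were called higher (6.45%) and 8 lower (25.8%), against 6.88% and 7.67% of all genes. Leaving out 1 array, lower calls numbered 5 without Stat5a/b siRNA array 1 or 2 or scramble array 1 or 3. Calls of higher members numbered 1 without Stat5a/b siRNA array 1, 2 or 3 or scramble array 1 or 2. LAMP2, a lysosomal membrane protein, read 9.90, 9.95 and 9.89 with Stat5a/b siRNA, against 8.51, 8.59 and 8.62 with scramble siRNA (1.34 ± 0.0947, adjusted p = 3.76e-05), and CTSD, cathepsin D, fell by 0.59 ± 0.0792 (adjusted p = 0.00113). LAMP3 read 8.54, 8.48 and 7.87 with Stat5a/b siRNA, against 7.08, 7.27 and 6.83 with scramble siRNA (1.23 ± 0.25, adjusted p = 0.00891). Opposite in sign were 2 of 4 probe sets of LAMP2.

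The machinery of RNA interference, which the transfected siRNA engages, had 2 of 12 genes called higher (16.7%) and 4 lower (33.3%), against 6.88% and 7.67% of all genes. Lower calls were 1 without Stat5a/b siRNA array 1 or 2 and 2 without scramble array 1, 2 or 3. AGO4, an Argonaute, rose by 0.86 ± 0.11 (adjusted p = 7.01e-04), the silencing scaffold TNRC6A rose by 0.52 ± 0.0998 (adjusted p = 0.00731) and TNRC6B fell by 0.61 ± 0.13 (adjusted p = 0.011). Against this sign were 1 of 4 probe sets of AGO4, 1 of 6 probe sets of TNRC6A and 1 of 7 probe sets of TNRC6B. The mean of all probe sets left TNRC6A at 0.20 (adjusted p = 0.104) and TNRC6B at -0.25 (adjusted p = 0.12) not called. None of 24 cytosolic ribosomal protein genes was called (limma, against 14.5% of all genes, and 0 of 24 also at an unadjusted p under 0.05). Of 24 oxidative phosphorylation genes 1 (4.17%, UQCRC2) and of 25 proteasome genes 1 (4%, PSMA5) were called lower, against 7.67% of all genes. UQCRC2 lost its call without Stat5a/b siRNA array 1 or 2 or scramble array 2, and PSMA5 lost its call whichever array was left out.

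**Figure D4:**
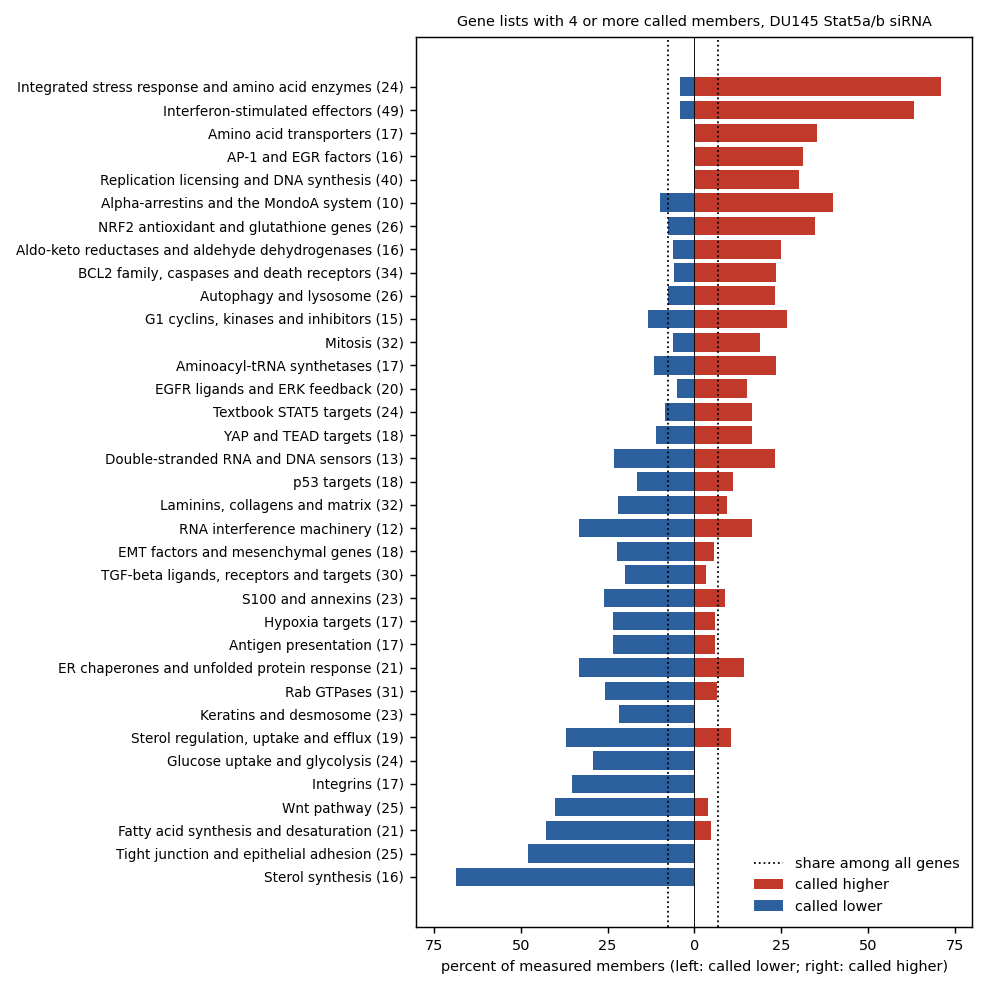
Percent of the measured members of each gene list that were called higher (right) or lower (left) with Stat5a/b siRNA in DU145, for lists with 4 or more called members; numbers in parentheses are measured members and dotted lines the shares among all genes, 6.88% and 7.67%. Stress response and interferon genes extend farthest right and sterol synthesis farthest left.

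Further genes among the 25 largest rises and 25 largest falls belong to other functions. AFAP1, an actin-binding adaptor of Src, read 6.19, 6.23 and 5.84 with Stat5a/b siRNA, against 3.92, 3.73 and 4.37 with scramble siRNA (2.08 ± 0.34, adjusted p = 0.00342). ABCG2, a drug efflux pump, read 6.15, 6.03 and 5.82 with Stat5a/b siRNA, against 7.51, 7.50 and 7.10 with scramble siRNA and fell to 38.7% of scramble (-1.37 ± 0.15, adjusted p = 4.11e-04). FECH, ferrochelatase, the last enzyme of haem synthesis, fell by 1.38 ± 0.0812 and UGCG, which makes glucosylceramide, fell by 1.32 ± 0.0784 (adjusted p = 2.28e-05 and 2.28e-05). SLC39A1, a zinc importer, read 7.40, 7.43 and 7.31 with Stat5a/b siRNA, against 8.74, 8.83 and 8.75 with scramble siRNA (-1.40 ± 0.0852, adjusted p = 2.30e-05). CEMIP2, a hyaluronan-cutting surface enzyme, fell by 1.79 ± 0.12 and PLCB1, a phospholipase of G-protein signalling, fell by 1.40 ± 0.0868 (adjusted p = 3.51e-05 and 2.30e-05).

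Of these 50 genes, 29 had several probe sets, and all probe sets agreed in sign for 21 of the 29. Agreement in sign did not always mean a like size. The probe sets of PCF11 ran from 0.01 to 1.33, of PPP2R1B from 0.03 to 1.33, of XAF1 from 0.07 to 1.54 and of KRT4 from -2.32 to -0.10. Those of others, such as RAB31 (-1.70 to -1.67), lay close together. On the rising side TUBE1, epsilon tubulin, rose by 1.39 ± 0.16 (adjusted p = 5.34e-04) and AOC3, an amine oxidase, by 1.30 ± 0.19 (adjusted p = 0.0018). PCF11, a factor of transcript 3' end formation, rose by 1.33 ± 0.28 (adjusted p = 0.0105) and PPP2R1B, a scaffold subunit of phosphatase 2A, by 1.33 ± 0.0831 (adjusted p = 2.30e-05). The sign was opposite in 1 of 2 probe sets of TUBE1. The 25 rises started from scramble means of 3.21 to 9.32, and 14 of these means lay under the level of the median gene. The 25 falls started from scramble means of 6.38 to 11.1, and 0 of them lay under that median.

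Cells given Stat3 siRNA offer a second siRNA in the same line. The contrast of the 2 siRNA groups uses no scramble array for its differences, but its standard errors come from all 9 DU145 arrays. It called 2379 genes (12%), of which 1176 (5.95%) were higher with Stat5a/b siRNA and 1203 (6.08%) lower. Of the 25 largest rises against scramble 23 were also higher than with Stat3 siRNA, and of the 25 largest falls 22 were lower; these genes were chosen on the same Stat5a/b siRNA arrays. Against the shared scramble arrays the median log2 change of the 25 rises was 1.496 with Stat5a/b siRNA and 0.06 with Stat3 siRNA, and that of the 25 falls was -1.45 with Stat5a/b siRNA and -0.53 with Stat3 siRNA. Interferon effectors were called higher than with Stat3 siRNA for 31 of 49 and lower for 2, and stress response genes for 14 and 1 of 24. Replication genes were called higher for 0 and lower for 6 of 40. Of the lists with many falls against scramble, sterol synthesis was lower than with Stat3 siRNA for 6 of 16, tight junction genes for 3 of 25 (and higher for 2), and keratin and desmosome genes for 1 of 23 (and higher for 1). Against the same scramble arrays, the median of tight junction genes was -0.29 with Stat5a/b siRNA and -0.21 with Stat3 siRNA, that of sterol synthesis -0.52 and -0.21, and that of interferon effectors 0.70 and -0.12.

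Gene by gene, TXNIP read 7.93, 7.74 and 7.61 with Stat5a/b siRNA, against 5.30, 5.43 and 5.76 with Stat3 siRNA (difference 2.27 ± 0.12, adjusted p = 1.64e-05). CMPK2 read 6.71, 6.82 and 6.52 with Stat5a/b siRNA, against 3.99, 4.25 and 4.04 with Stat3 siRNA (difference 2.59 ± 0.18, adjusted p = 2.42e-05). Neither gene overlapped between the siRNAs. F2RL2, a thrombin receptor, read 6.52, 6.26 and 6.50 with Stat5a/b siRNA, against 4.38, 3.63 and 3.90 with Stat3 siRNA and had the largest positive difference outside the interferon list (difference 2.46 ± 0.23, adjusted p = 1.36e-04). RAB31 read 9.35, 9.31 and 8.84 with Stat5a/b siRNA, against 11.05, 11.04 and 10.88 with Stat3 siRNA (difference -1.82 ± 0.14, adjusted p = 4.05e-05) and IFNAR1 read 6.62, 6.44 and 6.60 with Stat5a/b siRNA, against 8.20, 8.24 and 8.29 with Stat3 siRNA (difference -1.69 ± 0.0925, adjusted p = 1.64e-05). TNFRSF9 (4-1BB), a costimulatory receptor, had the largest negative difference and read 5.13, 4.94 and 4.77 with Stat5a/b siRNA, against 6.75, 7.30 and 7.24 with Stat3 siRNA (difference -2.15 ± 0.16, adjusted p = 4.05e-05), and did not pass the test against scramble (adjusted p = 0.58). KRT4 and FGFBP1, a secreted FGF carrier, did not pass the test between the siRNAs: the difference of KRT4 was -0.55 ± 0.38 and that of FGFBP1 -0.16 ± 0.11 (adjusted p = 0.4 and 0.42).

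The same siRNA in CWR22Rv1 shows which changes differ by line. The difference of the effects (DU145 minus CWR22Rv1) was called for 2357 genes (11.9%), 1022 positive (5.17%) and 1335 negative (6.75%). Of the genes called higher in DU145, 216 were also called higher in CWR22Rv1 (15.9% of 1361 in DU145 and 34.6% of 624 in CWR22Rv1), and of those called lower 311 were shared (20.5% of 1516 and 47.6% of 653). Called in opposite directions were 29 genes higher in DU145 and 42 genes lower in DU145. Of all genes, 6.46% were called in CWR22Rv1, 3.16% higher and 3.3% lower. Of the 25 largest falls 17 were also called lower there, and of the 25 largest rises 5 were called higher.

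The log2 change of STAT5B was -1.36 ± 0.11 in DU145 and -0.91 ± 0.0906 in CWR22Rv1, a difference of -0.45 ± 0.13 (adjusted p = 0.0312). That of TXNIP was 2.24 ± 0.12 in DU145 and 0.36 ± 0.0955 in CWR22Rv1 (difference 1.88 ± 0.14, adjusted p = 1.73e-06), and that of CMPK2 was 2.47 ± 0.18 in DU145 and 0.13 ± 0.14 in CWR22Rv1 (difference 2.34 ± 0.20, adjusted p = 7.79e-06). The effect on interferon effectors was more positive in DU145 for 21 of 49 and more negative for 1; for sterol synthesis these counts were 0 and 11 of 16, for stress response genes 16 and 1 of 24, for replication genes 19 and 0 of 40, and for tight junction genes 1 and 12 of 25.

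Some genes were called in opposite directions in the lines. GPNMB, a lysosomal and surface glycoprotein, read 5.36, 5.14 and 5.03 with Stat5a/b siRNA, against 6.35, 6.40 and 6.16 with scramble siRNA in DU145, a change of -1.13 ± 0.13, while in CWR22Rv1 it changed by 1.15 ± 0.11 (difference -2.27 ± 0.15, adjusted p = 1.73e-06). CLIC3, a chloride channel family member, changed by -1.28 ± 0.16 in DU145 and 0.64 ± 0.14 in CWR22Rv1 (difference -1.93 ± 0.19, adjusted p = 2.28e-05), and FGFBP1 by -1.72 ± 0.11 in DU145 and 0.58 ± 0.17 in CWR22Rv1 (difference -2.30 ± 0.24, adjusted p = 2.87e-05). In the stress response ASNS changed by 0.74 ± 0.0947 in DU145 and -0.46 ± 0.0754 in CWR22Rv1 (difference 1.20 ± 0.11, adjusted p = 9.79e-06), CHAC1 by 0.79 ± 0.12 and -0.67 ± 0.10 (difference 1.46 ± 0.15, adjusted p = 2.68e-05), and TRIB3 by 0.70 ± 0.0792 and -0.27 ± 0.0652 (difference 0.97 ± 0.0921, adjusted p = 1.56e-05). RAB31 and ENPP4, a surface nucleotide phosphatase, fell in both lines: RAB31 changed by -1.70 ± 0.14 in DU145 and -1.19 ± 0.13 in CWR22Rv1, and ENPP4 changed by -1.55 ± 0.0895 and -1.09 ± 0.0771.

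**Figure D5:**
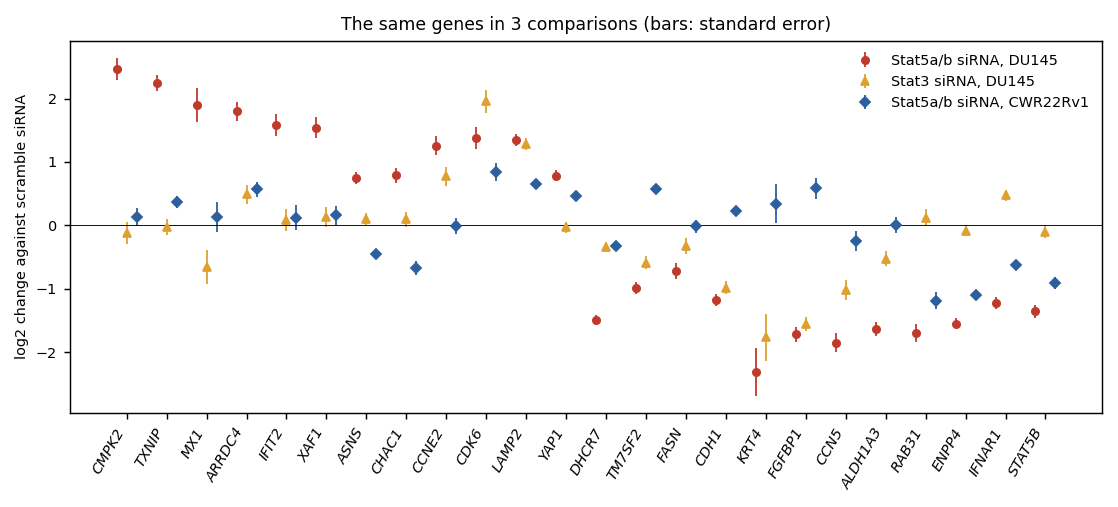
Log2 change against each line's own scramble siRNA, with standard errors, for 24 genes: Stat5a/b siRNA in DU145 (circles), Stat3 siRNA in DU145 (triangles, sharing the scramble arrays with the circles) and Stat5a/b siRNA in CWR22Rv1 (diamonds). CMPK2 and TXNIP lie above 2 among the circles alone, LAMP2 and CDK6 are above 0 in all 3, and RAB31 and ENPP4 are well below 0 with Stat5a/b siRNA in both lines.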

How the data were processed

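Total RNA of 18 samples was hybridised to Affymetrix U133 Plus 2.0 arrays. The authors deposited log2 expression values per probe set, made with RMA, and named limma, per the submitters' processing notes, with no versions; RMA corrects background, quantile-normalises arrays and summarises probes. Values ran from 1.54 to 14.3 and were not scaled further.

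Of 54675 probe sets, 41091 had 1 gene symbol, 1801 several and 11721 none, and 62 were controls. Entrez identifiers of 41037 matched RefSeq (GRCh38.p14), and 0 symbols changed. Each of 19775 genes took the brightest of its single-symbol probe sets by mean of the 18 arrays (a choice among several for 10523). A mean per group was fitted to the 9 DU145 arrays (limma 3.58.1, R 4.3.3; lmFit, eBayes, two-sided, Benjamini-Hochberg over all genes, called at an adjusted p under 0.05). Values written a ± b are a log2 difference and its standard error from this fit, with n = 3 arrays per group; effects in CWR22Rv1 and differences between lines come from a fit to all 18 arrays. The median standard error was 0.109. The fit was tested on simulated data.

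The 25 largest rises and falls among called genes without overlap, set STAT5-related genes, the 10 largest differences each way against Stat3 siRNA and between lines, and members of 62 lists could be named. Members and lists were chosen with earlier results of these data known. The replicate numbers were checked for pairing. Alternatives were all 18 or only 6 arrays, a replicate block, array weights, quantile or cyclic loess normalisation, the mean of probe sets, dim genes left out, and leaving out each array. In promoters, the 250 bases before RefSeq starts, 7 motifs were searched.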

Additional observations from a re-analysis of the deposited data

Results flagged for a closer look

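A test of the difference between the lines called 2357 genes whose Stat5a/b siRNA effect in DU145 was not that in CWR22Rv1 (interaction contrast over 18 arrays, limma, Benjamini-Hochberg). STAT5B was among them: its log2 change was -1.36 ± 0.11 in DU145 and -0.91 ± 0.0906 in CWR22Rv1, a difference of -0.45 ± 0.13 (adjusted p = 0.0312). The 10 largest negative and 10 largest positive differences, DU145 minus CWR22Rv1, follow as log2 values.

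More negative in DU145 were KRT4 (-2.66), FGFBP1 (-2.30), GPNMB (-2.27), CLIC3 (-1.93), PPL (-1.92), ALDH1A3 (-1.64), CCN5 (-1.60), CA11, a carbonic anhydrase relative (-1.59), TM7SF2 (-1.57) and MATN2, a matrix protein (-1.54). MATN2 was not called in DU145 (-0.13 ± 0.11, adjusted p = 0.494) and rose by 1.41 ± 0.15 in CWR22Rv1.

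More positive in DU145 were CMPK2 (2.34), TMED6, a cargo receptor relative (1.96), AFAP1 (1.94), TXNIP (1.88), LAMP3 (1.78), IFI27 (1.76), MX1 (1.76), PLPPR4 (1.75), C9orf152 (1.71) and TUBE1 (1.66). PLPPR4, a lipid phosphatase relative, was not called in DU145 (-0.11 ± 0.20, adjusted p = 0.777) and fell by 1.85 ± 0.17 in CWR22Rv1. TMED6 read 4.31, 4.46 and 4.27 with Stat5a/b siRNA, against 3.60, 3.003 and 2.80 with scramble siRNA, a low signal in both groups of DU145.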

How the results depend on the processing

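The limits are the 3 arrays per group, the unstated origin of the triplicates, 1 probe set per gene and the lack of detection calls. The total of 2877 called genes became 4805 in a fit over all 18 arrays (2334 higher, 2471 lower) and 5022 with array weights (2543 higher, 2479 lower). It was 2680 with only the 6 arrays compared, 2940 after quantile normalisation, 2980 after cyclic loess and 3416 with dim genes left out. Averaging all probe sets of a gene gave 2463 calls and 89 changes of at least 2-fold, against 168. Without 1 array the total ran from 1591 to 2467, with 701 to 1236 higher, 890 to 1233 lower and 149 to 211 changed at least 2-fold. The contrast with Stat3 siRNA called 4379 genes over all 18 arrays, against 2379. The replicate numbers did not pair the arrays by the rule used (correlations of deviations 0.0635, 0.122 and 0.175 between Stat5a/b siRNA and scramble arrays). As a hint from the data, each of these 6 arrays correlated best with its own number in the other group, and same-number correlations were 0.158 to 0.328 between scramble and Stat3 siRNA and 0.0116 to 0.087 between Stat5a/b siRNA and Stat3 siRNA. A fit with the replicate number as a block called 3431 genes and raised the higher calls among metallothioneins to 8 (from 1), AP-1 and EGR factors to 9 (from 5) and EGFR ligands and ERK feedback genes to 8 (from 3). STAT5A kept its sign but lost its call with all 18 arrays (-0.30) and without each array in turn (-0.33 to -0.25). Of the other single-gene results, ANXA1, AURKB and PSMA5 changed sign with the mean of all probe sets (-0.053, -0.075 and 0.014). The cause was not tested. Of 363 called single-gene results, 60 to 116 lost their call without 1 array, 76 with the mean of probe sets and at most 29 under the other settings. Of the 287 that kept it with the mean of probe sets, 48 were over 1.5 times smaller, among them STAT5B (-0.50), KRT4 (-1.21), IFNAR1 (-0.59), ALDH1A3 (-1.09), BCL2L2 (-0.70), XAF1 (0.74), LAMP2 (0.57), CDK6 (0.68), COL12A1 (-0.53) and COL6A1 (-0.28).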

Other observations

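Of 16 circadian clock genes 0 were called higher and 3 lower (18.8%, against 7.67% of all genes). BMAL2, a partner of CLOCK, read 7.18, 6.96 and 7.58 with Stat5a/b siRNA, against 8.47, 8.36 and 8.78 with scramble siRNA (-1.30 ± 0.16, adjusted p = 7.01e-04). Without scramble array 3, 1 clock gene was called higher. Hypoxia targets were called higher for 1 of 17 (5.88%, or 2 genes without scramble array 3) and lower for 4 (23.5%), against 6.88% and 7.67% of all genes. The lower count was 2 without Stat5a/b siRNA array 1 or 3 or scramble array 2. ADM, adrenomedullin, rose by 0.82 ± 0.15 (adjusted p = 0.00588), while P4HA1, a collagen hydroxylase, fell by 0.80 ± 0.0947 and BNIP3L, a mitophagy receptor, fell by 0.96 ± 0.0989 (adjusted p = 5.93e-04 and 2.73e-04). S100P rose by 0.82 ± 0.0943 (adjusted p = 4.98e-04) and S100A2 fell by 0.68 ± 0.12 (adjusted p = 0.00567). MTF1, the factor that induces metallothioneins on zinc, rose by 1.11 ± 0.11 (adjusted p = 2.05e-04), and none of the other 8 genes of that list was called, although 5 of the 9 had an unadjusted p under 0.05 (limma) and all 9 were positive (median 0.68). The list mean relative to scramble was 0.48, 0.43 and 1.01 on the Stat5a/b siRNA arrays, against -0.23, -0.29 and 0.52 on the scramble arrays, with array 3 the highest of each group. Called higher were 7 of the 9 without scramble array 3, 8 with the replicate number as a block, 5 over all 18 arrays, 4 with array weights and 3 with dim genes left out.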
